A study of Homo sapiens with 36 samples.

Results

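Polyadenylated RNA of MIAPACA-2, a human pancreatic cancer cell line, was counted over 32 genes of cholesterol and fatty acid synthesis. The genes form a list of names, with no threshold on their values in the rule: 18 enzymes of sterol synthesis, 6 regulators and carriers of the sterol pathway, and 8 genes of fatty acid synthesis. All 32 were found among the 61544 genes of the deposited count table. Of these, 31 had enough counts to be tested, while STARD4, a cytosolic sterol carrier, never exceeded 1 count and was at 0 in 30 of 36 libraries. The sterol counts below therefore run over 23 genes and the fatty acid counts over 8. The cells made Cas9 on addition of doxycycline (dox) and carried guide RNA to PELO (the PELO line), to HBS1L (the HBS1L line) or to no target (labelled NTC, the control line). Each line was cultured in medium with tetracycline-free serum, with 2 µg/mL dox or without dox, and collected at 48 h or 96 h. The 12 groups, 3 libraries each, were thus the PELO, HBS1L and control lines with dox and the same lines without dox at each time. The series' design describes the lines as having a destabilised SKI complex, a feature that all 12 groups share. Whether each line was 1 clone or a mixture of cells, and how many guides were used per gene, is not given in the sources used here.

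Cholesterol is built from acetyl-CoA, which ACLY supplies in the cytosol, through mevalonate, farnesyl diphosphate, squalene and lanosterol. Fatty acids are built from the same precursor by ACACA and FASN and then desaturated or lengthened by SCD, FADS1, FADS2 and ELOVL6. Many of these genes are known targets of the membrane-bound transcription factors encoded by SREBF1 and SREBF2. When sterols are scarce, SCAP escorts the factors to the Golgi, where the proteases MBTPS1 and MBTPS2 release them, and when sterols are plentiful INSIG1 and INSIG2 hold SCAP in the endoplasmic reticulum. PELO and HBS1L act together to rescue ribosomes that have stalled on a message, and the series asked what their loss does to transcript levels in these cells.

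Promoter sequence was available from RefSeq (GRCh38.p14) for 28 of the 32 genes and was searched on both strands over the 250 bases before the transcription start. The sterol regulatory element, searched as TCACNCCAC, occurred in 1 of the 28 genes (3.57%), SREBF2, against 1.09% of all 27305 genes with a promoter. The CCAAT motif, the letters bound by the factor NF-Y, occurred in 19 of 28 genes (67.9%), against 37% of all genes. The GC box GGGCGG occurred in 27 of 28 genes (96.4%), against 46.2% of all genes, and the palindromic E-box TCACGTGA in 1 gene, INSIG1, against 1.04%. A gene was counted if any of its promoter windows matched, and all genes here were not limited to those expressed in this line. A match describes these letters only, and the absence of a match says nothing about binding of the factor. The 4 windows below are shown because INSIG1 and SCD had the strongest falls, SREBF2 was the only gene with the sterol element, and HMGCS1 went the other way in the PELO line. Capitals mark the CCAAT motif in either direction (CCAAT or ATTGG), the sterol element and the E-box; the capitalised runs do not overlap. The windows lie at chr22:41832855-41833104 on the + strand (SREBF2), chr7:155297628-155297877 on the + strand (INSIG1), chr10:100346983-100347232 on the + strand (SCD) and chr5:43313413-43313662 on the - strand (HMGCS1).
SREBF2: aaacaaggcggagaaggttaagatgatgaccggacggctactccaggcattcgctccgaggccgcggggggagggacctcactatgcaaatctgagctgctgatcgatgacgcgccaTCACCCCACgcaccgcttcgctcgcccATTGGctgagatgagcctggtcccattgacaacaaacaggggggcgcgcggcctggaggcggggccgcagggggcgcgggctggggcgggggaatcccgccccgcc
INSIG1: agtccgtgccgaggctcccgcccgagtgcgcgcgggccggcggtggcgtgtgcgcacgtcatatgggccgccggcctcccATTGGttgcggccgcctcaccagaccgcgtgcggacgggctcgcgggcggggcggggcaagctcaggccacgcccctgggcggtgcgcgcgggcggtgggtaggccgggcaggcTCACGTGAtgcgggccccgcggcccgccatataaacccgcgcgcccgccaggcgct
SCD: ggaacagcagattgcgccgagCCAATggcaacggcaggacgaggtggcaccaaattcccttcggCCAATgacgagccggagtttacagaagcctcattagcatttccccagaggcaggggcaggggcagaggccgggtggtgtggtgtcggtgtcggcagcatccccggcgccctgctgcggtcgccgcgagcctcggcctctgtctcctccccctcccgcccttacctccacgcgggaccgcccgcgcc
HMGCS1: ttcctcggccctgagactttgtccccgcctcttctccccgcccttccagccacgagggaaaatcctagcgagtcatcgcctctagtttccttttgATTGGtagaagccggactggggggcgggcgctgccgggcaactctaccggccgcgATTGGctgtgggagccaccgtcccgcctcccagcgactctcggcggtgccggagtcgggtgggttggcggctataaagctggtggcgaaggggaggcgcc
The sterol element of SREBF2 began 133 bases before the start and its CCAAT motif 106 bases before it. HMGCS1 and SCD each held 2 CCAAT motifs, and INSIG1 held 1.

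Library totals were 45356024 to 66704841 counts, with 1 library at 107436235 counts (PELO line with dox at 96 h, replicate 2), and the lowest count of any tested member in any library was 404 (MVK). HBS1L message checked its guide: it lay at 33.4 to 34.1 CPM with dox and at 109.0 to 112.9 CPM without dox in the HBS1L line at 96 h, and at 35.4 to 37.2 CPM with dox and 103.6 to 107.1 CPM without dox at 48 h. PELO message did not check its guide: in the PELO line at 96 h it lay at 27.3 to 29.9 CPM with dox and 27.4 to 31.3 CPM without dox, and at 48 h at 20.2 to 20.9 CPM with dox and 23.7 to 26.0 CPM without dox. Protein was not measured, so how far PELO was lost is not shown by these data. CDKN2A and MTAP, which this line is known to lack, had at most 1 and 2 counts in a library. Libraries of 48 h and of 96 h were numbered in 2 separate blocks in the labels. Effects of time and of block cannot be told apart, also where ranges or orders over the 12 groups are given. Marker lists of this and other cell types differed between PELO libraries with and without dox at 96 h. Sums of markers are in CPM of library totals, and single markers in CPM on the scaled library sizes used for the members. The summed keratin and vimentin markers (KRT8, KRT18, VIM, 3 of 3 present) reached 7955 to 8605 CPM with dox, against 11370 to 11770 CPM without dox. Most of this sum was VIM, which averaged 7355 CPM with dox and 8586 CPM without dox. KRT8 averaged 791.1 and 1504 CPM with and without dox, and KRT18 787.7 and 1583 CPM. The 4 fibroblast markers, of which 1 (COL1A2) averaged over 1 CPM, summed to 27.4 to 30.1 CPM with dox and 210.1 to 225.4 CPM without dox. The 4 endothelial markers summed to 1.01 to 1.62 CPM with dox and 17.3 to 19.1 CPM without dox, with PECAM1 at or near 0. Most of this sum was CDH5, at a mean of 0.975 CPM with dox and 15.87 CPM without dox. The 4 leukocyte markers summed to 0.456 to 0.689 CPM with dox and 3.58 to 4.92 CPM without dox, with CD3E at or near 0. Most of this sum was CD14, at a mean of 0.547 CPM with dox and 4.239 CPM without dox. At 48 h in the PELO line the fibroblast sum was 85.6 to 94.3 CPM with dox and 140.8 to 150.4 CPM without dox, the endothelial sum 8.77 to 11.8 and 35.1 to 43.6 CPM, and the leukocyte sum 1.55 to 2.17 and 3.40 to 3.53 CPM. In the HBS1L line at 96 h the fibroblast sum was 144.8 to 167.5 CPM with dox and 192 to 201.8 CPM without dox, the endothelial sum 10.4 to 12.1 and 18.4 to 25.4 CPM, and the leukocyte sum 2.41 to 3.06 and 4.06 to 5.03 CPM. The control line at 96 h had a fibroblast sum of 174.8 to 192.9 CPM with dox and 214 to 226.1 CPM without dox, the leukocyte sum was 2.44 to 3.61 and 4.503 to 5.46 CPM, and the endothelial sums overlapped. At 48 h dox went with higher fibroblast and leukocyte sums in the control line, 241.9 to 261.6 CPM with dox and 161.1 to 172.6 CPM without dox for the first and 8.40 to 8.92 and 3.98 to 4.54 CPM for the second. The HBS1L line at 48 h likewise had 182.4 to 192.8 and 123 to 131.2 CPM for the first and 5.64 to 6.28 and 3.40 to 3.75 CPM for the second. Endothelial sums at 48 h were lower with dox, 29.98 to 34.55 against 35.21 to 40.98 CPM in the control line. In the HBS1L line they were 15.31 to 18.02 against 22.7 to 26.68 CPM. The part of these shifts in the results below was not tested.

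Per kilobase of exon, averaged over the 12 groups, SCD was the most abundant member at 253.4 CPM per kb, followed by ACLY at 82.2 and FASN at 72.7 CPM per kb. Among sterol genes FDPS led at 45.9 CPM per kb, then SREBF1 at 29.8 and FDFT1 at 28.6 CPM per kb. The lowest were SC5D at 2.04, MVK at 2.06, FADS2 at 2.08 and ELOVL6 at 2.08 CPM per kb, which differ by too little to be put in order. Of the 31 genes, 18 had their lowest group mean in the PELO line with dox at 96 h. For 8 it was the same line with dox at 48 h, and for 3 the HBS1L line with dox at 48 h. Lowest groups were not counted for genes outside the list, so whether these counts are particular to it was not tested. The widest ranges between the highest and the lowest group mean were those of SCD (5.04-fold) and INSIG1 (4.97-fold), and the narrowest those of SCAP (1.31-fold), SC5D (1.32-fold) and INSIG2 (1.34-fold).

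In the PELO line, dox lowered most sterol and fatty acid genes at 96 h beyond any change in the control line, which means the change with dox in the PELO line minus the change with dox in the control line. Of the 23 sterol genes 18 fell and 2 rose, and of the 8 fatty acid genes 7 fell and none rose. Across all 20767 genes tested, 26% fell and 28.7% rose (54.8% called in all) in this comparison, at a Benjamini-Hochberg adjusted p of 0.05 in edgeR's quasi-likelihood test. The median log2 change was -0.67 for the sterol genes and -0.70 for the fatty acid genes, against 0.02 for all genes tested. For the fatty acid genes DESeq2, limma and an unadjusted p under 0.05 gave 0 rises as well. In bulk RNA, a lower level in every cell and a loss of message in some of the cells cannot be told apart.

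**Figure D1:**
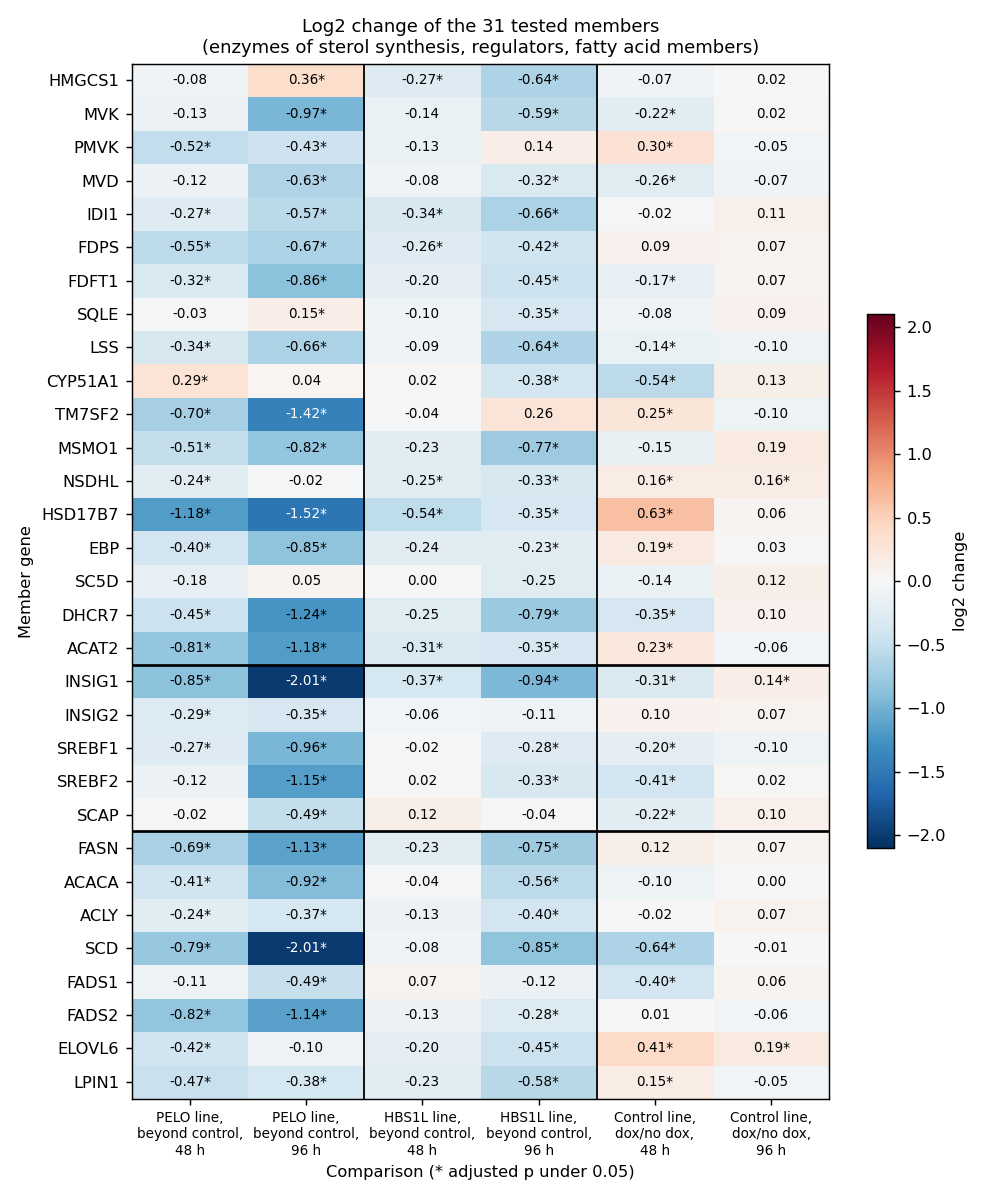
Log2 change of each tested gene (rows: enzymes of sterol synthesis, regulators, fatty acid genes, separated by heavy lines) in the PELO and HBS1L lines beyond the control line and in the control line with dox against no dox, at 48 h and 96 h (columns). Colour and number give the log2 change and an asterisk an adjusted p under 0.05: the PELO column at 96 h is blue except for HMGCS1 (0.36), SQLE (0.15), CYP51A1 (0.04) and SC5D (0.05), with NSDHL (-0.02) and ELOVL6 (-0.10) nearly white.

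INSIG1, the protein that retains SCAP and is itself a known target of the sterol-regulated factors, had the smallest adjusted p of all members. The gene (ENSG00000186480.13, chromosome 7, 155297776 to 155310235 on the + strand, GENCODE 29 on GRCh38) was at 19.0, 18.8 and 18.5 CPM in the 3 PELO libraries with dox at 96 h, against 67.1, 67.3 and 70.8 CPM without dox. The control line had 93.5, 90.7 and 95.4 CPM with dox and 84.2, 82.7 and 86.8 CPM without dox. The PELO libraries with dox were the lowest of the 12 groups and lay below every other library, while the control libraries with dox lay above those without. Beyond the control line INSIG1 fell by 2.01 ± 0.05 on the log2 scale (SE, n = 3 per group, adjusted p = 5.58e-26). Among the other regulators, SREBF2 fell by 1.15 ± 0.09, SREBF1 by 0.96 ± 0.07, SCAP by 0.49 ± 0.07 and INSIG2 by 0.35 ± 0.09. SREBF2 averaged 57.6 ± 2.51 CPM with dox and 126.3 ± 0.492 CPM without dox in the PELO line (SD, n = 3 each), and 135 ± 3.86 CPM with dox and 133 ± 5.66 CPM without dox in the control line. All 5 tested regulators thus fell, the pair of transcription factors included.

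The enzymes that make and use mevalonate differed in size of change. ACAT2, the cytosolic thiolase that feeds the pathway (ENSG00000120437.9, chromosome 6, 159760328 to 159779055 on the + strand), was at 33.5, 29.3 and 28.6 CPM in the PELO line with dox at 96 h, against 69.9, 68.2 and 76.3 CPM without dox. The control line had 81.4, 79.8 and 85.2 CPM with dox and 84.2, 83.5 and 88.3 CPM without dox. The PELO libraries with dox lay lowest, the untreated PELO libraries lay between them and the control line, and the control groups overlapped. The fall beyond the control line was 1.18 ± 0.07 on the log2 scale (adjusted p = 5.84e-16). Exons of SOD2, TCP1 and SOD2-OT1 on the other strand cover 52.3% of its exonic length, and whether the counting used strand is not given in the sources used here. MVK, mevalonate kinase, fell by 0.97 ± 0.08, whereas the later kinase PMVK fell by 0.43 ± 0.09 and the decarboxylase MVD by 0.63 ± 0.07. IDI1 and FDPS, which make farnesyl diphosphate, fell by 0.57 ± 0.07 and 0.67 ± 0.06, and FDFT1, squalene synthase, by 0.86 ± 0.06.

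Of the enzymes from squalene to cholesterol, HSD17B7, a sterol keto-reductase, and TM7SF2 fell most, and which of them fell more was not tested. HSD17B7 (ENSG00000132196.16, chromosome 1, 162790702 to 162812817 on the + strand) was at 11.95, 9.91 and 10.2 CPM in the PELO line with dox at 96 h, against 29.9, 28.6 and 29.8 CPM without dox. The control line had 34.4, 33.4 and 37.0 CPM with dox and 33.7, 32.6 and 34.5 CPM without dox. Again the PELO libraries with dox were below all others while the control groups overlapped, and the fall beyond the control line was 1.52 ± 0.08 on the log2 scale (adjusted p = 9.96e-19). Its 2 named pseudogenes held 2.68% of its mean count. TM7SF2, a sterol reductase, fell by 1.42 ± 0.10, DHCR7, a reductase of the last step, by 1.24 ± 0.10, the isomerase EBP by 0.85 ± 0.08, the oxidase MSMO1 by 0.82 ± 0.10 and LSS, which closes the rings of lanosterol, by 0.66 ± 0.07.

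SCD, the desaturase that makes oleate and palmitoleate, changed most among the fatty acid genes. SCD (ENSG00000099194.6, chromosome 10, 100347124 to 100364834 on the + strand) was at 441.5, 413.1 and 345.1 CPM in the PELO line with dox at 96 h, against 1544, 1548 and 1765 CPM without dox. The control line had 1957, 2034 and 2003 CPM with dox and 2033, 1968 and 2042 CPM without dox. The PELO libraries with dox again lay below all others, and the fall beyond the control line was 2.01 ± 0.10 on the log2 scale (adjusted p = 2.16e-18), the same size as that of INSIG1. FADS2 and FADS1, which desaturate polyunsaturated fatty acids, fell by 1.14 ± 0.08 and 0.49 ± 0.06. FASN, the synthase, fell by 1.13 ± 0.09, with 378.1 ± 17.96 CPM with dox and 791.1 ± 58.9 CPM without dox in the PELO line, and 997 ± 23.5 CPM with dox and 953 ± 50.4 CPM without dox in the control line. ACACA, the carboxylase that makes malonyl-CoA, fell by 0.92 ± 0.10, LPIN1, a phosphatidate phosphatase, by 0.38 ± 0.07 and ACLY, which supplies cytosolic acetyl-CoA, by 0.37 ± 0.06. ELOVL6, the elongase of saturated chains, had a log2 change of -0.10 ± 0.09 (adjusted p = 0.341).

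**Figure D2:**
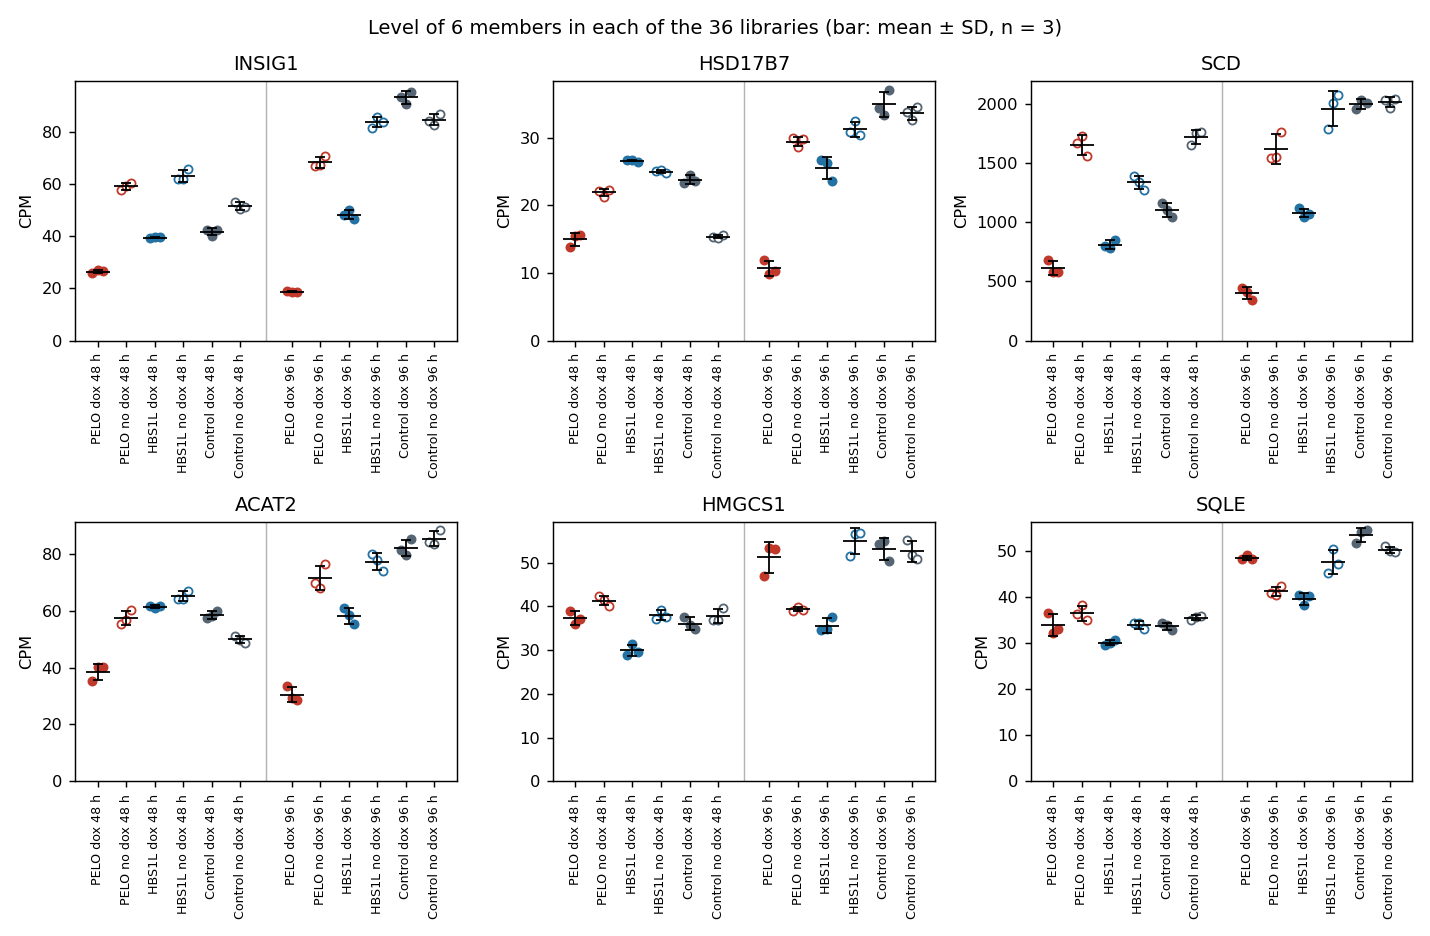
CPM (y axis) of 6 genes in each of the 36 libraries, by group (x axis; filled points with dox, open points without dox; bar and whiskers, mean ± SD of 3 libraries). INSIG1, HSD17B7, SCD and ACAT2 are lowest in the PELO line with dox at 96 h, while HMGCS1 and SQLE are higher there than in the same line without dox.

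A small set of sterol enzymes did not take part in the fall at 96 h, and these genes were singled out after their values were seen. HMGCS1, the synthase at the entry of the mevalonate pathway (ENSG00000112972.15, chromosome 5, 43289395 to 43313512 on the - strand), was at 47.1, 53.4 and 53.2 CPM in the PELO line with dox, against 39.1, 39.9 and 39.3 CPM without dox. The control line had 54.2, 55.0 and 50.4 CPM with dox and 55.3, 51.7 and 50.8 CPM without dox. The PELO libraries with dox thus lay above those without dox and within or just below the range of the control line, and the PELO libraries without dox were the lowest of these 4 groups. Beyond the control line HMGCS1 rose by 0.36 ± 0.07 on the log2 scale (adjusted p = 4.95e-05). SQLE, the squalene epoxidase, was at 48.3, 49.0 and 48.1 CPM with dox and 40.7, 40.5 and 42.4 CPM without dox in the PELO line, and at 51.6, 54.1 and 54.6 CPM with dox and 51.0, 50.01 and 49.7 CPM without dox in the control line. Its change beyond the control line was 0.15 ± 0.06 (adjusted p = 0.0422), and this call is fragile: leaving out any 1 of the 12 libraries gave an adjusted p of 0.0554 to 0.218. CYP51A1 (0.04 ± 0.06), SC5D (0.05 ± 0.09) and NSDHL (-0.02 ± 0.06), which act on lanosterol and later sterols, did not pass the test beyond the control line. Other genes cover 83.2% of the exonic length of CYP51A1.

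Within the PELO line alone at 96 h, dox against no dox gave 18 sterol genes down and 5 up, and 7 fatty acid genes down and none up, where 32.5% of all genes tested fell and 34.4% rose (66.8% called). The 5 that rose were HMGCS1 by 0.38 ± 0.05, SQLE by 0.23 ± 0.04, SC5D by 0.17 ± 0.07, CYP51A1 by 0.16 ± 0.04 and NSDHL by 0.14 ± 0.05 on the log2 scale. For all 23 sterol genes the 3 libraries with dox lay on one side of the 3 without, 18 below and 5 above, and for the fatty acid genes 7 lay below and ELOVL6 above. Of all genes tested, 32.6% had the libraries with dox wholly below and 34.8% wholly above. The dox libraries of the PELO line were also set against those of the control line at 96 h, a comparison that shares the PELO dox libraries. There 20 of 23 sterol genes and all 8 fatty acid genes were lower and none was higher (31.1% of all genes lower, 33.1% higher, 64.3% called), with a median log2 difference of -0.96 in each list. HMGCS1 (-0.05 ± 0.05), CYP51A1 (0.04 ± 0.04) and SC5D (-0.01 ± 0.06) did not pass.

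At 48 h the PELO line already showed lower sterol and fatty acid transcripts, with smaller changes. Beyond the control line 15 of 23 sterol genes fell and 1 rose, and 7 of 8 fatty acid genes fell, against 24.9% of all genes tested falling and 22.9% rising (47.9% called). The median log2 change was -0.29 for the sterol genes and -0.44 for the fatty acid genes, against -0.04 for all genes. INSIG1 was at 25.9, 27.0 and 26.5 CPM in the PELO line with dox, against 57.8, 59.1 and 60.6 CPM without dox. The control line had 42.4, 40.2 and 42.5 CPM with dox and 53.0, 50.3 and 51.3 CPM without dox, so that the 4 groups did not overlap and dox lowered INSIG1 in both lines. The fall beyond the control line was 0.85 ± 0.06 on the log2 scale (adjusted p = 2.1e-15).

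HSD17B7 at 48 h was at 13.9, 15.5 and 15.6 CPM in the PELO line with dox and at 22.2, 21.3 and 22.2 CPM without dox, while the control line had 23.3, 24.5 and 23.7 CPM with dox and 15.4, 15.1 and 15.6 CPM without dox. The 2 lines thus moved in opposite directions, and the difference of -1.18 ± 0.08 (adjusted p = 6.32e-15) combined a fall of 0.55 ± 0.06 in the PELO line with a rise of 0.63 ± 0.06 in the control line. ACAT2 followed the same pattern, with 35.3, 40.2 and 40.2 CPM with dox and 55.3, 56.9 and 60.2 CPM without dox in the PELO line, against 57.5, 58.1 and 60.0 CPM with dox and 51.3, 49.7 and 48.8 CPM without dox in the control line. The PELO libraries with dox were below all others and the control libraries with dox above those without, for a difference of -0.81 ± 0.08 (adjusted p = 3.41e-11). FADS2 was at 15.2, 13.4 and 12.6 CPM with dox and 23.8, 23.6 and 24.8 CPM without dox in the PELO line, and at 22.7, 23.4 and 23.9 CPM with dox and 21.5, 24.2 and 23.5 CPM without dox in the control line. Only the PELO libraries with dox stood apart, and FADS2 fell by 0.82 ± 0.09 beyond the control line (adjusted p = 3.54e-10).

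The other calls at 48 h ran from -0.79 ± 0.10 for SCD and -0.70 ± 0.10 for TM7SF2 to -0.24 ± 0.06 for ACLY and -0.24 ± 0.07 for NSDHL. CYP51A1 was the 1 sterol gene that rose, by 0.29 ± 0.06 (adjusted p = 0.00032) beyond the control line; its change with dox was -0.26 ± 0.05 in the PELO line and -0.54 ± 0.05 in the control line. HMGCS1, SQLE, MVK, MVD, SC5D, SREBF2, SCAP and FADS1 did not pass. Replicate 1 of the PELO line with dox at 48 h was higher than the other 2 for several fatty acid genes and for SREBF2, with 116.4 CPM of SREBF2 against 94.9 and 95.5 CPM, and 503.7 CPM of FASN against 415.1 and 412.1 CPM. Without that library SREBF2 had an adjusted p of 0.0163 and a log2 change of -0.22, and INSIG2, which fell by 0.29 ± 0.09 with all libraries, had an adjusted p of 0.0701. INSIG2 also lost its call on leaving out replicate 2 of the untreated control line (adjusted p = 0.0517), while SC5D gained one without replicate 3 of the PELO line with dox (adjusted p = 0.0443).

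Within the PELO line at 48 h, 21 of 23 sterol genes and 7 of 8 fatty acid genes fell and none rose (23.7% of all genes fell, 24.2% rose, 48% called). The exceptions were SQLE, NSDHL and ELOVL6. Set against the control line with both given dox at 48 h, 15 sterol genes and 7 fatty acid genes were lower and 1 sterol gene, CYP51A1, was higher (29.6% of all genes lower, 27.6% higher, 57.3% called).

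In the HBS1L line most sterol and fatty acid genes fell at 96 h as well, with smaller median changes than in the PELO line. The genes were not all the same, as HMGCS1 and SQLE rose in the PELO line and fell in the HBS1L line. Beyond the control line 18 of 23 sterol genes and 7 of 8 fatty acid genes fell and none rose, against 5.32% of all genes tested falling and 5.41% rising (10.7% called). The median log2 change was -0.35 for the sterol genes and -0.50 for the fatty acid genes, against 0.01 for all genes. INSIG1 was at 48.0, 50.03 and 46.7 CPM in the HBS1L line with dox, against 81.6, 85.7 and 83.9 CPM without dox. These groups did not overlap, and the dox libraries also lay below both control groups given above. INSIG1 fell by 0.94 ± 0.05 on the log2 scale (adjusted p = 4.02e-15). LSS (ENSG00000160285.15, chromosome 21, 46188141 to 46228824 on the - strand) was at 114.4, 109.9 and 108.4 CPM in the HBS1L line with dox and at 177.9, 192.9 and 187.8 CPM without dox. In the control line LSS was at 178.2, 180.7 and 180.2 CPM with dox and at 198, 194.1 and 187 CPM without dox. Of these 4 groups only the HBS1L libraries with dox stood apart, below the rest, and LSS fell by 0.64 ± 0.07 (adjusted p = 1.06e-08).

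Further falls in the HBS1L line at 96 h were those of DHCR7 (-0.79 ± 0.10), MSMO1 (-0.77 ± 0.10), IDI1 (-0.66 ± 0.07), HMGCS1 (-0.64 ± 0.07) and MVK (-0.59 ± 0.08) among the sterol enzymes. Among the fatty acid genes SCD fell by 0.85 ± 0.10, FASN by 0.75 ± 0.09, LPIN1 by 0.58 ± 0.07, ACACA by 0.56 ± 0.10, ELOVL6 by 0.45 ± 0.08, ACLY by 0.40 ± 0.06 and FADS2 by 0.28 ± 0.08. SREBF2 and SREBF1 fell by 0.33 ± 0.09 and 0.28 ± 0.07. PMVK (0.14 ± 0.09), TM7SF2 (0.26 ± 0.10), SC5D (-0.25 ± 0.09), INSIG2 (-0.11 ± 0.09), SCAP (-0.04 ± 0.07) and FADS1 (-0.12 ± 0.06) did not pass. The weakest call was EBP (-0.23 ± 0.08, adjusted p = 0.0472), which had an adjusted p of 0.0534 to 0.171 without replicate 1 or 2 of either HBS1L group, replicate 1 or 3 of the control line with dox, or replicate 1 or 2 of the control line without dox. EBP also missed the threshold with the 18 libraries of that time (adjusted p = 0.068), limma (0.0513) and no filter (0.0914). FADS2 lost its call without replicate 2 of either HBS1L group or replicate 3 of the control line without dox (adjusted p = 0.0547 to 0.078), and TM7SF2 was called higher without replicate 3 of the control line with dox (adjusted p = 0.0421).

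Within the HBS1L line at 96 h, the same numbers fell, 18 of 23 sterol genes and 7 of 8 fatty acid genes, and none rose (8.9% of all genes fell, 11% rose, 19.9% called). DESeq2 and limma called 0 rises there as well, and 1 sterol gene was higher at an unadjusted p under 0.05, as was 1 beyond the control line. Against the control line with both given dox, 19 sterol genes and 7 fatty acid genes were lower and TM7SF2 was higher by 0.18 ± 0.07 (14.8% of all genes lower, 14.9% higher, 29.8% called). At 48 h the changes of the HBS1L line beyond the control line were few: 7 of 23 sterol genes and none of the 8 fatty acid genes fell, and none rose, against 2.44% of all genes falling and 1.41% rising (3.85% called). At an unadjusted p under 0.05, 4 fatty acid genes were lower in edgeR, and after adjustment DESeq2 called 1 and limma 0 of them lower. HSD17B7 was at 26.7, 26.7 and 26.5 CPM in the HBS1L line with dox and at 25.0, 25.2 and 24.7 CPM without dox. Here the libraries with dox lay above those without, but the control line rose further, so that the difference was -0.54 ± 0.08 (adjusted p = 2.2e-05). INSIG1 was at 39.3, 39.6 and 39.6 CPM with dox and at 61.9, 61.7 and 65.7 CPM without dox, with no overlap, and fell by 0.37 ± 0.05 beyond the control line (adjusted p = 3.38e-05).

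IDI1 (-0.34 ± 0.07), ACAT2 (-0.31 ± 0.07), HMGCS1 (-0.27 ± 0.07), FDPS (-0.26 ± 0.06) and NSDHL (-0.25 ± 0.07) were the other calls of the HBS1L line at 48 h. HMGCS1 had an adjusted p of 0.0523 to 0.0777 without replicate 1 or 3 of the HBS1L line with dox, replicate 2 of that line without dox, replicate 1 of the control line with dox, or replicate 1 or 2 of the control line without dox. NSDHL had one of 0.0552 to 0.075 without replicate 1 or 2 of the HBS1L line with dox, replicate 2 or 3 of that line without dox, replicate 3 of the control line with dox, or replicate 1 or 3 of the control line without dox. FDPS had one of 0.0517 and 0.0579 without replicate 3 of either control group. Within the HBS1L line at 48 h, 14 sterol genes fell and 2 rose, and 3 fatty acid genes fell and 1 rose (11.4% of all genes fell, 10.1% rose, 21.5% called). SCD fell there by 0.72 ± 0.07 and in the control line by 0.64 ± 0.07, which left -0.08 ± 0.10 beyond the control line. With both lines given dox at 48 h, the HBS1L line was lower than the control line in 5 sterol and 5 fatty acid genes and higher in 3 sterol genes (13.6% of all genes lower, 9.47% higher, 23.1% called). These 13 calls came to 6 or 5 without replicate 1 or 2 of the HBS1L line with dox and to 4 without replicate 1 of the control line with dox.

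The response of the PELO line was tested against that of the HBS1L line, each as dox minus no dox. At 96 h 15 sterol genes were lower and 5 higher, and 5 fatty acid genes were lower and 2 higher, against 26.4% of all genes tested lower and 29.1% higher (55.5% called). The largest negative differences were those of TM7SF2 (-1.68 ± 0.10), HSD17B7 (-1.18 ± 0.08), SCD (-1.16 ± 0.10) and INSIG1 (-1.07 ± 0.05). SREBF2 (-0.82 ± 0.09) and SREBF1 (-0.68 ± 0.07) also fell further in the PELO line. The 5 sterol genes with a positive difference were HMGCS1 (1.00 ± 0.07), SQLE (0.50 ± 0.06), CYP51A1 (0.41 ± 0.06), NSDHL (0.31 ± 0.06) and SC5D (0.31 ± 0.09). HMGCS1 was at 34.5, 34.8 and 37.6 CPM in the HBS1L line with dox and at 51.5, 56.6 and 56.7 CPM without dox, so the guide lines moved in opposite directions with no overlap in either. LSS (-0.02 ± 0.07), MSMO1 (-0.05 ± 0.10), IDI1 (0.09 ± 0.07) and ACLY (0.03 ± 0.06) did not pass the test of the difference. The positive difference of LPIN1 (0.21 ± 0.07) came with a larger fall in the HBS1L line. For ELOVL6 (0.35 ± 0.09) the libraries with dox lay above those without in the PELO line and below them in the HBS1L line.

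**Figure D3:**
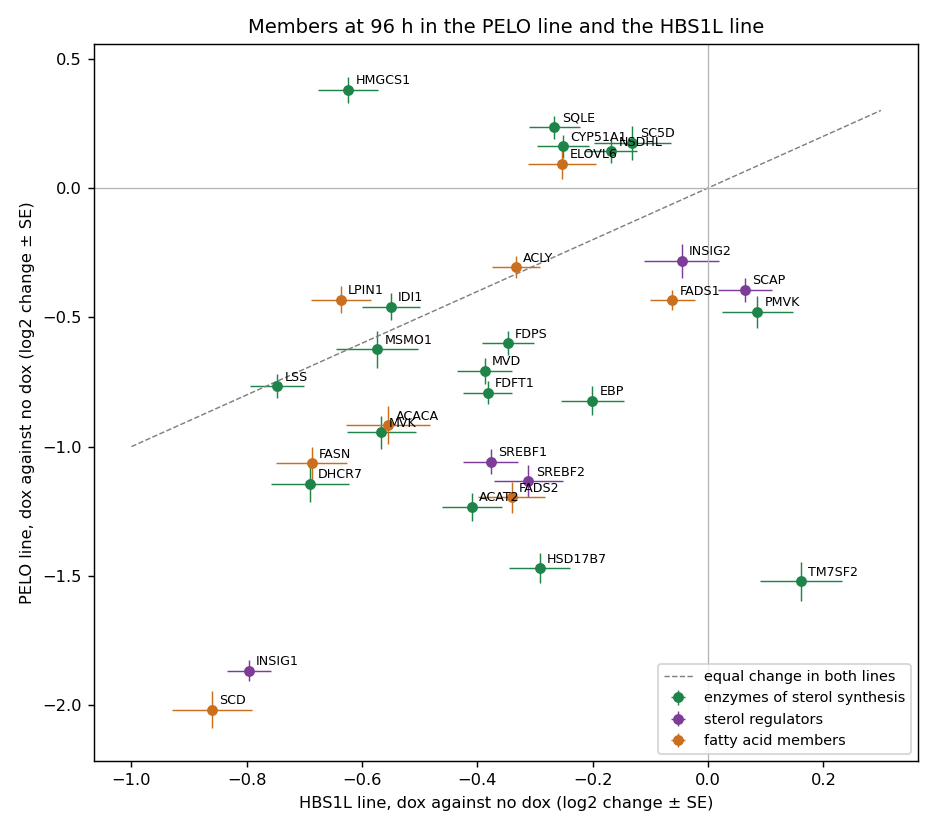
Log2 change at 96 h with dox against no dox in the PELO line (y axis) and in the HBS1L line (x axis) for the 31 tested genes, with SE bars, coloured by group; the dashed line marks equal change. Most genes lie below the dashed line, TM7SF2 is at -1.52 in the PELO line and at 0.16 in the HBS1L line, and HMGCS1 is the point furthest above the dashed line.

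With both lines given dox at 96 h, all 8 fatty acid genes and 17 sterol genes had every PELO library below every HBS1L library, the same 5 sterol genes had every PELO library above, and MSMO1 overlapped. Of all genes tested, 34.6% lay wholly below and 34.8% wholly above in this way. Falls with dox in both lines were called for 20 of the 31 genes at 96 h, against 4.52% of all genes tested, and at 48 h for 16 genes, against 2.87%. The fall was the larger in the PELO line for 17 of the 20 genes at 96 h, a share close to the 85.9% of all genes falling in both lines, and for 12 of the 16 at 48 h, against 61%. The difference between the responses at 48 h gave 10 sterol genes lower and 2 higher (HMGCS1, 0.20 ± 0.07, and CYP51A1, 0.26 ± 0.06), and 7 fatty acid genes lower (21.3% of all genes lower, 21.9% higher, 43.2% called). SCD (-0.71 ± 0.10), FADS2 (-0.70 ± 0.09), TM7SF2 (-0.65 ± 0.10) and HSD17B7 (-0.64 ± 0.08) had the largest differences there.

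In the control line members also changed with dox at 48 h. Effects of the drug and of the Cas9 it induces cannot be told apart. Of the sterol genes 10 fell and 6 rose, and of the fatty acid genes 2 fell and 2 rose (16% of all genes fell, 19% rose, 35% called). SCD fell by 0.64 ± 0.07, CYP51A1 by 0.54 ± 0.05, SREBF2 by 0.41 ± 0.06 and FADS1 by 0.40 ± 0.04, while HSD17B7 rose by 0.63 ± 0.06 and ELOVL6 by 0.41 ± 0.06. At 96 h none fell, and INSIG1 (0.14 ± 0.04), NSDHL (0.16 ± 0.05) and ELOVL6 (0.19 ± 0.06) rose (3.63% of all genes fell, 3.89% rose, 7.52% called). DESeq2 and limma called 0 falls too, with 2 sterol genes lower at an unadjusted p under 0.05. These 3 calls are fragile, with 0 members called without replicate 1 or replicate 2 of the group without dox and 1 without replicate 3 of the group with dox.

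Without dox the lines did not start from the same level. At 96 h the PELO line was lower than the control line in 16 sterol genes and all but FADS1 of the 8 fatty acid genes, and higher in SCAP (11.5% of all genes lower, 10.3% higher, 21.8% called), with medians of -0.24 and -0.26. LSS (-0.50 ± 0.05), HMGCS1 (-0.42 ± 0.05) and DHCR7 (-0.40 ± 0.07) had the largest differences. At 48 h the untreated PELO line was higher in 7 sterol genes and 4 fatty acid genes and lower in none (4.72% of all genes lower, 6.37% higher, 11.1% called), with HSD17B7 at 0.51 ± 0.06. DESeq2 and limma also called 0 members lower there, and 1 fatty acid gene was lower at an unadjusted p under 0.05. The untreated HBS1L line at 48 h was higher in 11 sterol genes and 1 fatty acid gene and lower in 2 sterol and 3 fatty acid genes (19.2% of all genes lower, 18.7% higher, 37.9% called), again with HSD17B7 foremost at 0.70 ± 0.06. At 96 h the untreated HBS1L line had 0 members called in edgeR's test (0.135% of all genes) and 0 in DESeq2 and limma, with 3 sterol genes lower and 1 fatty acid gene higher at an unadjusted p under 0.05. The log2 differences ran from -0.14 ± 0.06 for PMVK to 0.15 ± 0.06 for ELOVL6.

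The change of the dox response between the times was tested within each line, with the limit that time and library block coincide. In the PELO line 13 sterol and 4 fatty acid genes had a lower response at 96 h than at 48 h and 5 sterol genes a higher one (19.9% of all genes lower, 22.1% higher, 42.1% called). TM7SF2 (-1.08 ± 0.11), HSD17B7 (-0.92 ± 0.08), INSIG1 (-0.71 ± 0.06) and ACAT2 (-0.66 ± 0.08) went down furthest, and HMGCS1 (0.53 ± 0.07), SC5D (0.49 ± 0.09), CYP51A1 (0.42 ± 0.06), SQLE (0.34 ± 0.06) and NSDHL (0.23 ± 0.07) went up. In the HBS1L line 6 sterol and 6 fatty acid genes had a lower response at 96 h and 1 of each a higher one (10.2% of all genes lower, 12.2% higher, 22.4% called), led by FASN (-0.57 ± 0.09), LPIN1 (-0.57 ± 0.07) and LSS (-0.52 ± 0.07). In the control line 11 sterol and 2 fatty acid genes had a higher response at 96 h and 4 and 1 a lower one (14.1% of all genes lower, 12.3% higher, 26.5% called), with CYP51A1 (0.67 ± 0.06) and SCD (0.63 ± 0.10) changing most.

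Across the 12 groups the sterol genes and the fatty acid genes were compared as whole lists, as a description without a test. The summed level of the 23 sterol genes at 96 h averaged 982 CPM in the PELO line with dox and 1605 CPM without dox, 1412 and 1855 CPM in the HBS1L line with and without dox, and 1930 and 1902 CPM in the control line with and without dox. The summed level of the 8 fatty acid genes at 96 h averaged 1386 CPM in the PELO line with dox and 3246 CPM without dox, 2448 and 3930 CPM in the HBS1L line with and without dox, and 4008 and 3954 CPM in the control line with and without dox. The sums weight SCD and FASN heavily. The mean log2 CPM over members gives each gene equal weight, and the fatty acid mean minus the sterol mean was 1.41 ± 0.04 in the PELO line with dox and 1.54 ± 0.02 without dox at 96 h (SD, n = 3 each). It was 1.53 ± 0.03 and 1.66 ± 0.06 in the HBS1L line with and without dox, and 1.59 ± 0.07 and 1.60 ± 0.05 in the control line with and without dox. In both guide lines the libraries with dox lay below those without in this difference at 96 h, whereas the control groups overlapped. The order and size of this difference between the lists changed with the summary used. The median of the changes of single genes within the PELO line at 96 h was -0.67 for the fatty acid genes and -0.71 for the sterol genes, and with the median of members in each library the change was -0.67 for the fatty acid genes and -0.24 for the sterol genes. At 48 h the difference was 1.49 ± 0.12 in the PELO line with dox and 1.63 ± 0.06 without dox, 1.47 ± 0.03 and 1.43 ± 0.05 in the HBS1L line, and 1.63 ± 0.04 and 1.63 ± 0.06 in the control line, and the groups overlapped within each line.

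**Figure D4:**
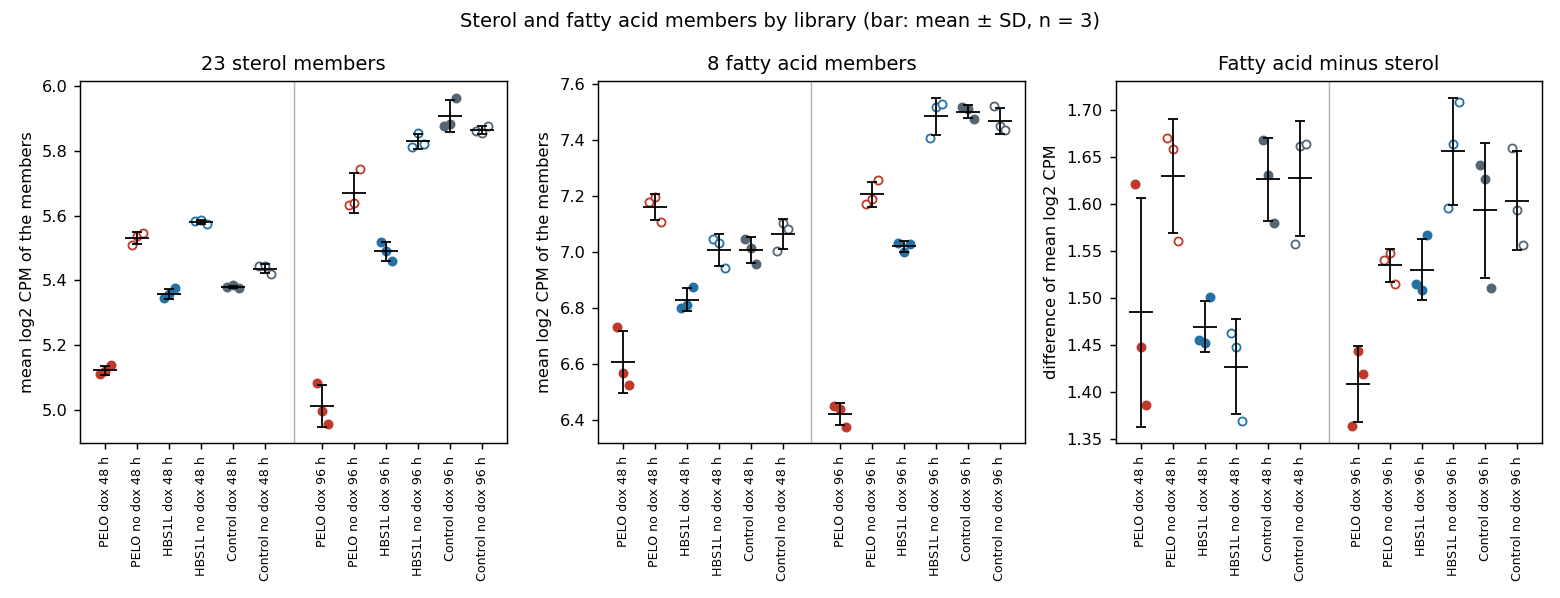
Mean log2 CPM of the 23 sterol genes (left) and of the 8 fatty acid genes (middle), and the fatty acid mean minus the sterol mean (right), for each library by group (filled points with dox, open points without dox; bar and whiskers, mean ± SD of 3 libraries). The PELO line with dox at 96 h is lowest in all 3 panels by its mean, at 5.01, 6.42 and 1.41.

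Within the module most genes varied together over the 12 group means. Genes outside the module were not compared in this way, so whether this is particular to the module was not tested. Pearson's r of a gene with the mean of the other sterol genes, over 12 groups that share lines and library blocks, was 0.989 for FDFT1, 0.98 for MVK and INSIG1, and 0.977 for DHCR7 and FASN. The lowest values over the 12 groups were those of CYP51A1 (0.242), ELOVL6 (0.379), SC5D (0.39), HMGCS1 (0.416), SQLE (0.461) and NSDHL (0.515). Some differed by time, over 6 groups each: SC5D had 0.827 at 48 h and -0.114 at 96 h, ELOVL6 -0.24 and 0.657, and CYP51A1 0.39 and -0.154. HMGCS1 (0.266 and 0.197), SQLE (0.29 and 0.249) and NSDHL (0.388 and 0.345) were low at both times. SREBF1 had 0.76 over the 12 groups, 0.821 at 48 h and 0.974 at 96 h, and SREBF2 had 0.705, 0.651 and 0.961.

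Neighbouring pathways were counted in the same comparison, the PELO line at 96 h beyond the control line, in which 26% of all genes fell and 28.7% rose. Of 10 tested genes of SREBP processing and turnover 3 fell and 4 rose (median 0.15), shares near those of all genes. MBTPS1, the first protease, fell by 0.53 ± 0.06, while the ubiquitin enzyme UBE2G2 rose by 0.60 ± 0.08. Of 8 genes of the oxysterol receptor (LXR) list 6 fell and 1 rose (median -0.79). Among those lower were LPCAT3, a phospholipid acyltransferase (-1.22 ± 0.07), the exporter ABCG1 (-0.92 ± 0.14) and the ubiquitin ligase MYLIP (-0.67 ± 0.10). The 1 that rose, NR1H2 (0.35 ± 0.06), was named after its value was seen. NR1H2 and NR1H3 of this list encode the receptors themselves. NR1H3 averaged 4.38 CPM with dox and 5.43 CPM without dox in the PELO line. In the control line NR1H3 averaged 5.27 CPM with dox and 5.21 CPM without dox. Exons of other genes cover 65.6% of the exonic length of LPCAT3. Of 12 genes of sterol esterification and trafficking 7 fell and 2 rose (median -0.23), among them LIPA, the lysosomal lipase (-1.49 ± 0.08), GRAMD1C, a sterol transporter (-1.92 ± 0.18), and TMEM97 (-0.49 ± 0.05).

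Of 22 further genes of lipogenesis 13 fell and 1 rose (median -0.31), led by ELOVL5, an elongase (-1.01 ± 0.06), SLC25A1, the mitochondrial citrate carrier (-0.99 ± 0.08), and TECR, an enoyl reductase (-1.06 ± 0.09). The 1 that rose, the elongase ELOVL7 (1.60 ± 0.14), was named after its value was seen. In fatty acid oxidation, the opposing pathway, 10 of 14 genes fell and 1 rose (median -0.33), against the same 26% and 28.7% of all genes, with ACADS (-1.34 ± 0.12), ETFDH (-0.95 ± 0.07) and CPT2 (-0.80 ± 0.07) lower. The 1 that rose, CPT1A (1.23 ± 0.14), the rate-controlling transferase of this pathway, was named after its value was seen. CPT1A averaged 47.8 CPM with dox and 26.1 CPM without dox in the PELO line at 96 h. In the control line it averaged 27.6 CPM with dox and 35.3 CPM without dox, so its difference combined a higher level in the PELO line with a lower one in the control line. Of 12 genes that use isoprenoids for products other than sterols 3 fell and 7 rose (median 0.24), with TRIT1 at 1.23 ± 0.08 and RABGGTA at -0.92 ± 0.09. In the HBS1L line at 96 h, where 5.32% of all genes fell and 5.41% rose, the lists were counted in the same way. SREBP processing had 1 fall and no rise, the LXR list 2 falls and 1 rise, esterification and trafficking 5 falls and 1 rise, further lipogenesis 7 falls and 1 rise, fatty acid oxidation no fall and 1 rise, and the isoprenoid list 2 falls and no rise.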

How the data were processed

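RNA-seq of polyadenylated RNA was available for 36 libraries, 3 per group. The tools listed in the submitters' processing notes are limma, edgeR, featureCounts, Subread and DRAGEN, with the build GRCh38.p13. Their versions and order, the gene annotation and the strand setting were not given in the sources used here. A count table deposited by the authors holds expected counts per gene, of which 45.6% of those above 0 are not whole. The log2 CPM table deposited by the authors, log2 of the count plus 0.5 scaled per library, lists 17138 of 61544 genes and served only as an alternative.

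Expected counts were rounded first, and edgeR 4.0.16 was run under R 4.3.3. The steps were filterByExpr (minimum count 10, minimum total 15, 20767 genes kept), TMM scaling, 1 mean per group, robust quasi-likelihood F tests and Benjamini-Hochberg adjustment at 0.05 over all genes tested. The planned count tests were kept although the counts are not whole, and the code was tested on simulated data. CPM of members used TMM-scaled library sizes; indices over members used log2 CPM with a prior count of 2. Gene positions, exonic lengths and overlaps came from GENCODE 29. Exons shared with other genes and reads shared with pseudogenes can move counts between genes. Alternatives were DESeq2 1.42.0 size factors and Wald test, limma 3.58.1 on the deposited log2 table, no filter, the 18 libraries of 1 time, a replicate block, leaving out each library and, for the indices, a prior count of 0.5 or the median of members.

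Values in every library are given, by rule, for the 4 members of smallest adjusted p in the PELO line and the 2 in the HBS1L line beyond the control line at each time, and up to 3 genes per neighbouring list are named; members named outside this rule are marked, and some genes that the rule picks are not reported here. The members and lists were chosen with earlier results of these data known. The labels do not state that replicates came from separate cultures, and p-values therefore measure only the spread between these libraries, which may be technical. On average, replicate numbers showed no pairing of the libraries. Residuals of same-numbered libraries had a mean correlation of -0.017 over 90 pairs, ranging from -0.558 to 0.577. Those of other numbers had 0.01 over 180 pairs, ranging from -0.571 to 0.552. These means depend on each other, since residuals were taken from the mean of each group, so they do not settle pairing in single comparisons.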

Additional observations from a re-analysis of the deposited data

Results flagged for a closer look

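The dox responses of the PELO and HBS1L lines differed by edgeR's test of the difference itself. At 48 h, 10 sterol genes were lower and 2 higher in the PELO response than in the HBS1L response, and 7 fatty acid genes were lower, against 21.3% of all genes lower and 21.9% higher. At 96 h, 15 sterol genes were lower and 5 higher, and 5 fatty acid genes were lower and 2 higher, against 26.4% and 29.1% of all genes. HMGCS1 and SQLE moved in opposite directions in the PELO and HBS1L lines at 96 h, with differences of 1.00 and 0.50 on the log2 scale.

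The dox responses also differed between 96 h and 48 h, where time and library block coincide. In the PELO line 13 sterol genes had a lower response at 96 h and 5 a higher one, and 4 fatty acid genes a lower one, against 19.9% of all genes lower and 22.1% higher. In the HBS1L line 6 sterol and 6 fatty acid genes had a lower response and 1 of each a higher one, against 10.2% and 12.2% of all genes. In the control line 4 sterol genes and 1 fatty acid gene had a lower response, and 11 sterol and 2 fatty acid genes a higher one, against 14.1% of all genes lower and 12.3% higher. The causes of these differences were not tested.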

How the results depend on the processing

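Single genes were checked only for the members and only beyond the control line, and there no called value changed sign. The replicate block changed no call of a member there. With it, 27 members were called at 96 h in the PELO line and 25 in the HBS1L line, each beyond the control line. Counts of called members stayed within 1.5 times under DESeq2, its size factors, limma and the block in the 23 comparisons. With no filter, 8 members were called in the HBS1L line against the control line with dox at 48 h and 1 in the control line at 96 h, where the 18 libraries of that time gave 0. Leaving out 1 library gave 4 to 12 calls and 0 to 3 calls in these comparisons. The fatty acid median within the PELO line at 96 h was -0.71 by limma, -0.65 with no filter and -0.72 to -0.70 with 1 library left out. The sterol median within the PELO line at 48 h was -0.40 with no filter and -0.42 to -0.36 with 1 library left out, and against the control line with dox at 48 h it was -0.17 with 18 libraries, -0.24 with no filter and -0.2347 to -0.1961 with 1 left out. The sterol median of the HBS1L line against the control line with dox was -0.047 to -0.0151 at 48 h and -0.45 to -0.40 at 96 h with 1 left out. With the median of members in place of their mean, the library index of the sterol genes changed with dox by -0.23 and -0.24 in the PELO line at 48 h and 96 h, -0.28 and -0.44 in the HBS1L line and -0.0854 in the control line at 48 h. That of the fatty acid genes changed by -0.67 in the PELO line at 96 h and by -0.25 and -0.0249 in the control line at 48 h and 96 h. The cause of these shifts was not tested. Of the values of single members beyond the control line under the alternatives, 2173 kept their side of the threshold, 49 lost a call and 10 gained one. Of the losses, 16 were SQLE in the PELO line at 96 h. There DESeq2 size factors gave an adjusted p of 0.0542, limma 0.171, no filter 0.18 and 18 libraries 0.0705. The lowest count of a tested member was 404; STARD4 was too low to test.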
